A study of Mus musculus with 16 samples.

Results

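The genes described here encode 3 subunits of the m6A methyltransferase complex (Wtap, Virma and Rbm15), the m6A demethylase (Alkbh5) and the 3 YTHDF readers of the mark (Ythdf1, Ythdf2 and Ythdf3). They were chosen by name, and they account for 7 of the 4943 genes and 21 of the 7069 distinct peaks in the deposited peak table. The study profiled m6A by MeRIP-seq, in which fragmented RNA is sequenced before (input) and after (IP) pull-down with an antibody against m6A, in mouse peritoneal macrophages (PMs) with and without ADAP, an adapter protein of immune cells encoded by Fyb1. Cells of wild-type (WT) and of Adap-/- animals received either a mock treatment or lipopolysaccharide (LPS), a bacterial ligand of the receptor TLR4, at 1 μg/ml for 6 h. This makes 4 groups with 2 replicates apiece, and with 1 input and 1 IP library per replicate there are 16 libraries. Adap-/- mice lack the protein in every cell of the body. The PMs were collected by lavage after thioglycolate had been injected to draw cells into the peritoneum, so they are elicited rather than resting cells. The mice were 6 to 8 weeks old and of the C57BL/6 background. The labels do not state whether cells of several mice were pooled.

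m6A is the most frequent internal modification of mammalian mRNA and is enriched around stop codons and in long exons. It is written in the nucleus by a complex in which METTL3 is the catalytic subunit and METTL14 its RNA-binding partner, and it can be removed by the demethylases ALKBH5 and FTO. In the cytoplasm the YTHDF proteins bind the mark through their YTH domain and pass the transcript on to translation or to decay, and in macrophages this machinery is known for tuning the transcripts of the inflammatory response.

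The total count over all peaks ran from 2121313 to 4325961 reads in the 8 input libraries (median 2883046.5) and from 5728590 to 19030373 reads in the 8 IP libraries (median 10378793). The genotype was checked on Fyb1 (ENSMUSG00000022148, chromosome 15), whose input level in mock-treated PMs was 46.7 and 36.9 CPM (reads scaled to the library's total over the tested genes times its TMM factor) in the Adap-/- replicates and 244 and 257 CPM in the WT replicates. On its CDS peaks at chr15:6609828-6610128 and chr15:6610303-6610478 no Adap-/- input library exceeded 5 reads and no WT input library had fewer than 254. On a wider CDS peak, annotated both to Fyb1 and to ENSMUSG00000089647 (chr15:6614658-6649123), the Adap-/- input libraries held 93 to 171 reads and the WT input libraries 164 to 186. The IP library of Adap-/- mock replicate 1 held 59 and 42 reads on the first 2 of these peaks, against at most 8 in the other Adap-/- IP libraries. On the Fyb1 peak that spans the start codon (chr15:6552383-6599121) no input library exceeded 5 reads, so its input does not separate the genotypes. There the WT IP libraries held 12 to 62 reads and the Adap-/- IP libraries 0 to 137, with 137 in Adap-/- mock replicate 1. None of the 7 genes lies on the chromosome of Fyb1.

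The cell type was checked on marker genes, as far as these carry a peak. Of 8 macrophage markers 6 had a peak, with a summed input level between 6746 and 9514 CPM per library, most of it from Lyz2 and Cd68. The sum was 8124 to 9514 CPM in mock and 6746 to 8048 CPM in LPS-treated libraries, and the markers did not move alike. In both genotypes Lyz2 was called lower with LPS (−0.68 in WT and −0.55 in Adap-/- PMs) and Fcgr1 (3.202 and 2.309) and Mertk (1.61 and 1.04) higher. Adgre1 was called higher in Adap-/- PMs (0.90, adjusted p = 0.0174) and gave 0.20 in WT PMs (adjusted p = 0.653). Its responses were not shown to differ (0.71, adjusted p = 0.578). Upper-quartile scaling, an alternative to TMM, ended the Adgre1 call (0.63, adjusted p = 0.0802). It called Cd68 lower with LPS in WT (−0.29, adjusted p = 0.0286) and Adap-/- PMs (−0.36, adjusted p = 0.0106). After LPS, Fcgr1 and Mertk were lower in Adap-/- than in WT PMs (−1.28 and −0.32, adjusted p = 0.000204 and 0.0371). The other macrophage markers went both ways without a call. Adgre1 and Csf1r gave 0.93 and 0.13 (adjusted p = 0.0554 and 0.716), and Cd68 and Lyz2 gave −0.18 and −0.11 (adjusted p = 0.301 and 0.622). No marker of neutrophils (7 genes), B cells (5), T cells (7), eosinophils (4) or mast cells (4) had a peak. Of the markers of resident peritoneal macrophages only Cd9 (1 of 5) had one, and of fibroblasts and mesothelium only Pdgfra (1 of 6, at 27.4 to 70.8 CPM). The LPS treatment was checked on Tnf, Il1b, Il6, Nos2, Cxcl10, Ifit1, Ptgs2 and Il12b, and 8 of 8 rose in the input of both genotypes, with a median log2 fold change of 8.88 in WT and 8.98 in Adap-/- PMs. In libraries of whole cultures, fewer cells of a type and less RNA per cell cannot be told apart.

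A pair of IP libraries stood apart from their labels. On 183 peaks whose input rose with LPS by more than 5 on the log2 scale in both genotypes, the mock input libraries had 0.414% to 0.627% of their reads and the LPS-treated IP libraries 9.44% to 12.5%. The IP library of WT mock replicate 1 had 8.92% of its reads there and that of Adap-/- mock replicate 2 had 8.05%, whereas the remaining mock IP libraries had 0.648% and 1.09%. On 233 peaks whose input fell by more than 2 in both genotypes, the same pair held 3.19% and 2.87% of their reads, between the other mock IP libraries (4.77% and 4.10%) and the LPS-treated ones (0.439% to 0.781%). Their Spearman correlation with the other replicate of their group was 0.855 (WT) and 0.875 (Adap-/-) over 7058 peaks, against 0.962 and 0.946 in the LPS-treated IP pairs and 0.982 to 0.987 in the input pairs. Both sets of peaks were chosen by their change in input, so they cannot show whether an input library is displaced. The expression values below use input libraries alone and thus none of the doubtful IP libraries. The tests of the IP-to-input ratio were repeated without the doubtful pair. Single ratios, ranks and percentiles are from all libraries.

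**Figure D1:**
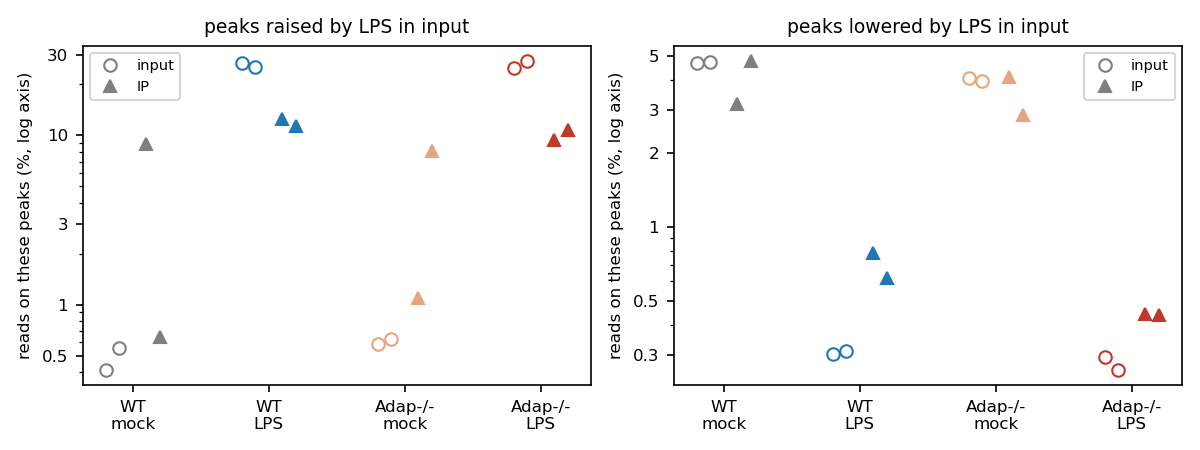
Percent of each library's reads (log axis) on 183 peaks raised by LPS in input (left) and on 233 peaks lowered by LPS in input (right), by group. Open circles are input libraries and filled triangles IP libraries, 2 per group; the triangles of WT mock replicate 1 (8.92%) and Adap-/- mock replicate 2 (8.05%) lie near those of LPS-treated cells in the left panel.

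The 21 peaks were spread unevenly over the genes, and each of them is annotated to 1 gene only. On build GRCm39, Wtap (ENSMUSG00000060475, chromosome 17, minus strand) carried 5 peaks, Virma (ENSMUSG00000040720, chromosome 4, plus strand) 1 and Rbm15 (ENSMUSG00000048109, chromosome 3, minus strand) 4. Alkbh5 (ENSMUSG00000042650, chromosome 11, plus strand) had 1 peak, Ythdf1 (ENSMUSG00000038848, chromosome 2, minus strand) 3, Ythdf2 (ENSMUSG00000040025, chromosome 4, minus strand) 4 and Ythdf3 (ENSMUSG00000047213, chromosome 3, plus strand) 3. Peaks are numbered here from the 5′ end of each gene. Of the 21 peaks 14 (66.7%) lay within coding sequence alone, against 31.4% of all peaks in the table, and 2 (9.52%) covered a stop codon, against 32.0% of all peaks. Every peak of the YTHDF readers was of the coding kind, as were Virma peak 1 (chr4:11513687-11513812) and Rbm15 peaks 2 to 4. The stop codon peaks were Wtap peaks 4 and 5 (chr17:13186532-13186757 and chr17:13186382-13186507), and Wtap peak 3 (chr17:13193485-13193660) lay in the 3′UTR of a shorter Wtap transcript that ends upstream of them. The only Alkbh5 peak (chr11:60429221-60429396) spanned the start codon, as did Wtap peak 2 and Rbm15 peak 1. Wtap peaks 1 and 2 extend over 6010 and 2118 bases, while the median length was 175 bases both among the 21 peaks and among all peaks. The deposited files carry no sequence, so motifs under the peaks were not analysed here.

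Because Wtap, Alkbh5 and Ythdf1 are the genes of the 7 whose input rose with LPS in WT PMs, their promoters are shown, as the 250 bases before the start site in the RefSeq table of build GRCm38.p6. Of the 7 genes 5 matched this table, and Virma and Ythdf3 did not. Capitals mark matches, on either strand, to the GC box GGGCGG, the CCAAT box, the E-box CACGTG and the CRE half-site TGACG. The promoters are at chr17:12992544-12992793 (minus strand, Wtap), chr11:60537433-60537682 (plus strand, Alkbh5) and chr2:180920937-180921186 (minus strand, Ythdf1), each written 5′ to 3′ toward the gene.
Wtap: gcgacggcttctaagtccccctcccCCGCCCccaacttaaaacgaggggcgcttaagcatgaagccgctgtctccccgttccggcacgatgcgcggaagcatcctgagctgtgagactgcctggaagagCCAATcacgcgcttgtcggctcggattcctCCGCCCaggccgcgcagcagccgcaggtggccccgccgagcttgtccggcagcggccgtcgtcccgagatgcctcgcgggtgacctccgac
Alkbh5: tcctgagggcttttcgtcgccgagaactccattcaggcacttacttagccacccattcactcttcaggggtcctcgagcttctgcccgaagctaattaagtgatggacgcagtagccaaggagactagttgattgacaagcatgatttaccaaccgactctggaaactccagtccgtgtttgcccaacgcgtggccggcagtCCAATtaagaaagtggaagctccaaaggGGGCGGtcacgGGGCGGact
Ythdf1: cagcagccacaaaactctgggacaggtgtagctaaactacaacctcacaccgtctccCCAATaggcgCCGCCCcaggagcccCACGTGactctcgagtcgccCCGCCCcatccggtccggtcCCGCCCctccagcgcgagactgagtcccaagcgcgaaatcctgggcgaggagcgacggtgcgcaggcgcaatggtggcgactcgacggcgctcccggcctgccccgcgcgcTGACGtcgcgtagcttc
All 3 promoters held the CCAAT box and the GC box, which stand in 33.8% and 32.7% of the 32851 promoters of the table. The GC box occurred at 2 places before Wtap, 2 before Alkbh5 and 3 before Ythdf1. Ythdf1 alone among the 3 held the E-box (6.02% of all promoters) and the CRE half-site (17.8%), the latter 17 bases before the start. The E-box palindrome, at 168 bases before the start, reads alike on both strands. No match was found in these 3 windows to an NF-kB motif (7.25% of all promoters), the AP-1 motif TGANTCA (6.75%), the IRF motif, which is GAAA repeated after any 2 bases (2.98%), or the ETS motif CCGGAAG (6.91%), and none of the marked matches overlapped another. Of the promoters not printed, that of Rbm15 held the CCAAT box at 2 places and that of Ythdf2 the GC box at 1. GC content was 68.0% for Wtap, 54.0% for Alkbh5 and 68.4% for Ythdf1, against a median of 52.4% over the table. A match describes letters and is not evidence that a factor binds.

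Expression was read from the input libraries, as reads summed over the peaks of a gene and scaled to CPM with TMM factors. It therefore covers the peak regions of a transcript and not its whole length. The TMM factors were 1.39 to 1.51 in mock and 0.65 to 0.74 in LPS-treated input libraries, which adds 1.08 (WT) and 1.06 (Adap-/-) to each log2 fold change with LPS compared with scaling to the totals alone. A rise or fall with LPS is thus relative to the bulk of the genes tested, and of the 7 genes only Ythdf1 in WT PMs rose by more than this amount. To compare genes with each other, the median over a gene's peaks of input CPM per kb was used. This measure depends on peak width, so its order need not be that of the transcripts. In WT mock replicate 1 the Ythdf3 peaks of 50 and 75 bases held 34.1 and 49.98 CPM of input, and that of 875 bases 182 CPM. Wtap peaks 1 and 2, of 6010 and 2118 bases, had at most 4 and 26 input reads per library and lower the Wtap median. In WT mock PMs this level was highest for Ythdf3 (658 CPM per kb), followed by Alkbh5 (421), Ythdf1 (388), Wtap (292), Ythdf2 (262), Virma (199) and Rbm15 (69.6), and no 2 neighbours in this order overlapped between replicates. After LPS in WT PMs Ythdf1 led with 684 CPM per kb, and Wtap (513), Alkbh5 (491) and Ythdf3 (484) followed with replicates that overlapped each other. In Adap-/- PMs Ythdf3 had the highest level both without LPS (795 CPM per kb) and with it (639). There, neighbours overlapped for Wtap (371) and Ythdf1 (362) without LPS, and for Alkbh5 (439) and Wtap (418) with LPS. Ythdf2, Virma and Rbm15 took the last 3 places, in this order, in each of the 4 groups.

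**Figure D2:**
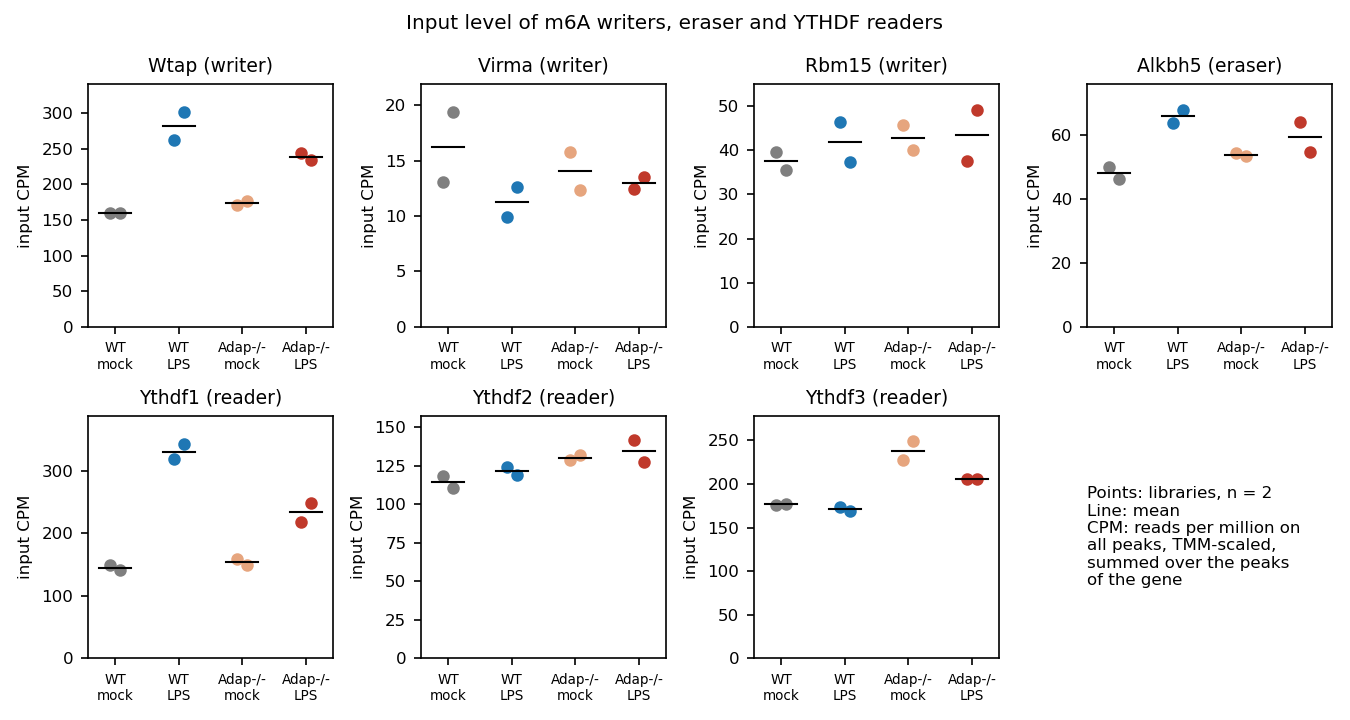
Input level of the 7 genes in TMM-scaled CPM summed over the peaks of each gene. Points are libraries (2 per group) and lines their means; Ythdf1 and Wtap are higher with LPS in every replicate of both genotypes, while Virma stays between 9.94 and 19.4 CPM.

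Differences in input were tested with edgeR over all 4742 genes that passed a filter on low counts, and a gene was called at an adjusted p below 0.05. All 7 genes passed the filter. The p-values measure the spread between these samples, and with 2 replicates a group that spread was estimated jointly over the 4 groups. LPS against mock in WT PMs, which asks how the stimulus alone changes the machinery, gave 3 called genes of the 7, all higher, beside 59.2% of all genes tested. The same comparison in Adap-/- PMs gave 2 of 7, both higher, beside 54.5% of all genes. These directions depend on the scaling: with the upper quartile, 2 genes were called higher (Wtap and Ythdf1) and 2 lower (Virma and Ythdf3) in WT, and 1 higher (Ythdf1) and 1 lower (Ythdf3) in Adap-/- PMs. Loss of ADAP gave 1 of 7 after LPS (lower) beside 15.8% of all genes, and 1 of 7 in mock (higher) beside 17.4%. The Adap-/- response to LPS minus the WT response was called by edgeR for 0 of 7 genes, beside 1.64% of all genes, while DESeq2 called 1 of the 7 and 98 of the 4928 genes it tested. At an unadjusted p below 0.05 it was 2 of the 7, beside 12.7% of all genes in edgeR. These shares give no sign that the 7 genes as a list were called more often than other genes. Their median log2 fold change was 0.16 for LPS in WT (−0.03 over all genes), 0.05 for LPS in Adap-/- (−0.03), 0.04 for genotype after LPS (−0.01) and 0.16 for genotype in mock (0.01). The comparisons share libraries, so their values stand side by side and are not independent of each other.

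Among the writers, Wtap, whose product brings the catalytic pair to nuclear speckles, was the subunit with a called change. Its input level was 159.4 and 159.5 CPM in the WT mock replicates and 261 and 302 CPM in the WT LPS replicates, and in Adap-/- PMs it was 171 and 177 CPM without and 243 and 233 CPM with LPS. The LPS-treated libraries lay above the mock libraries in both genotypes, with no overlap. The rise was 1.76-fold in WT PMs (log2 fold change 0.82, SE 0.10, adjusted p = 3.29e-06) and 1.37-fold in Adap-/- PMs (0.46, SE 0.10, adjusted p = 0.00114). Upper-quartile scaling, which moves the median of all genes by −0.29 (WT) and −0.28 (Adap-/-) on the log2 scale, ended the second call (0.18, adjusted p = 0.131). The difference between the genotypes' responses was −0.36 (SE 0.14) and did not pass the correction (adjusted p = 0.275), and the level after LPS did not pass either (−0.24 for Adap-/- against WT, adjusted p = 0.129).

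Virma encodes the large scaffold subunit that directs methylation toward the stop codon and 3′UTR, and it was the gene with the fewest reads of the 7, with 32 to 72 reads on its peak per input library. It had 13.0 and 19.4 CPM in WT mock, 9.94 and 12.7 CPM in WT LPS, 15.7 and 12.4 CPM in Adap-/- mock and 12.4 and 13.5 CPM in Adap-/- LPS. The WT LPS replicates were below the WT mock replicates, while the Adap-/- groups overlapped. The log2 fold change with LPS was −0.53 in WT PMs (SE 0.28, adjusted p = 0.118) and −0.12 in Adap-/- PMs (adjusted p = 0.741). The WT value rested on the mock libraries: it reached −0.81 without WT mock replicate 1 (adjusted p = 0.0342) and under upper-quartile scaling (−0.81, adjusted p = 0.0169). Over all alternatives it lay between −0.81 and −0.24, with adjusted p between 0.0169 and 0.577.

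Rbm15 encodes an RNA-binding subunit that recruits the complex to particular sites, and its level ran from 35.6 CPM in WT mock replicate 2 to 49.2 CPM in Adap-/- LPS replicate 2. Its replicates overlapped between LPS and mock in both genotypes. The log2 fold change with LPS was 0.16 in WT (SE 0.17, adjusted p = 0.46) and 0.01 in Adap-/- PMs (SE 0.17, adjusted p = 0.981), and both turned negative under upper-quartile scaling (−0.13 and −0.27) without a call. Of the 3 subunits, Wtap was called with LPS and the other two were not.

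The eraser Alkbh5 encodes a nuclear demethylase that returns m6A to adenosine. It had 50.1 and 46.3 CPM in WT mock, 64.0 and 68.0 CPM in WT LPS, 54.6 and 53.4 CPM in Adap-/- mock and 64.3 and 54.7 CPM in Adap-/- LPS. Both WT LPS libraries were above the WT mock libraries, whereas 1 of the Adap-/- LPS libraries lay close to mock. Alkbh5 rose with LPS in WT PMs by 1.37-fold (log2 fold change 0.45, SE 0.13, adjusted p = 0.00697). The call ended without WT mock replicate 2 (0.37, adjusted p = 0.0585) and under upper-quartile scaling (0.16, adjusted p = 0.288). In Adap-/- PMs the value was 0.15 (SE 0.13, adjusted p = 0.357), and −0.13 under upper-quartile scaling (adjusted p = 0.399). The responses of the genotypes were not shown to differ (−0.30, SE 0.18, adjusted p = 0.55).

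Of the readers, Ythdf1, known as a reader that favours translation, had the largest rise with LPS of the 7 genes in both genotypes. Its input level was 149 and 141 CPM in WT mock and 319 and 342 CPM in WT LPS, and in Adap-/- PMs it was 160 and 149 CPM without and 218 and 249 CPM with LPS. All LPS-treated libraries exceeded all mock libraries, and the Adap-/- LPS libraries were below the WT LPS libraries, with no overlap. Ythdf1 rose 2.28-fold in WT PMs (log2 fold change 1.19, SE 0.10, adjusted p = 4.82e-08) and 1.51-fold in Adap-/- PMs (0.60, SE 0.10, adjusted p = 0.000134). In mock-treated PMs the genotypes overlapped (0.09 for Adap-/- against WT, SE 0.11, adjusted p = 0.62). After LPS the Adap-/- level was 0.705 times the WT level (−0.50, SE 0.10, adjusted p = 0.00329), a call that ended without Adap-/- LPS replicate 1 (−0.41, adjusted p = 0.0511). The LPS response of Adap-/- PMs minus that of WT PMs was −0.59 on the log2 scale (SE 0.15), which missed the threshold in edgeR over all genes (adjusted p = 0.0587). It passed with DESeq2 (−0.60, adjusted p = 0.048) and when only peaks annotated to 1 gene were summed over the table (−0.57, adjusted p = 0.0456). In the main fit no other gene of the 7 had an adjusted p below 0.275 in this comparison.

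Ythdf2, the reader best known for bringing transcripts to deadenylation, was the steadiest of the readers. Its level ran from 111 CPM in WT mock replicate 2 to 141 CPM in Adap-/- LPS replicate 1. The log2 fold change with LPS was 0.08 in WT (SE 0.11, adjusted p = 0.541) and 0.05 in Adap-/- PMs (SE 0.11, adjusted p = 0.741). Upper-quartile scaling made both negative (−0.20 and −0.23) without a call. In the test of input peak by peak (below), that scaling called Ythdf2 peaks 1 and 4 lower in WT (−0.62 and −0.44, adjusted p = 0.0112 and 0.0154). In Adap-/- PMs it called peaks 1 and 3 lower (−0.58 and −0.70, adjusted p = 0.0147 and 0.0159). Adap-/- libraries were above WT libraries both in mock and after LPS, but the differences of 0.18 (adjusted p = 0.259) and 0.15 (adjusted p = 0.415) were not called.

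Ythdf3, a reader that works with the other two, differed by genotype in the absence of LPS. Its level was 176 and 177 CPM in WT mock against 228 and 249 CPM in Adap-/- mock, and after LPS it was 174 and 169.5 CPM in WT against 206 and 205 CPM in Adap-/- PMs. The Adap-/- libraries were above the WT libraries under both treatments, with no overlap. Ythdf3 was 1.35-fold higher in Adap-/- than in WT mock PMs (log2 fold change 0.43, SE 0.10, adjusted p = 0.00559), and the call ended without Adap-/- mock replicate 2 (0.37, adjusted p = 0.0868). After LPS the difference was 0.26 (SE 0.10, adjusted p = 0.0898), which reached an adjusted p of 0.05 when genes with fewer than 10 counts in any input library were left out (0.29). The interaction did not show that the genotype effect depends on LPS (−0.17, SE 0.14, adjusted p = 0.666). LPS itself gave −0.04 in WT (adjusted p = 0.751) and −0.21 in Adap-/- PMs (adjusted p = 0.0732, or 0.0302 with the same minimum of 10 counts). Under upper-quartile scaling these became −0.33 (adjusted p = 0.00895) and −0.49 (adjusted p = 0.000403), so the size of these changes and whether they were called depended on the scaling.

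**Figure D3:**
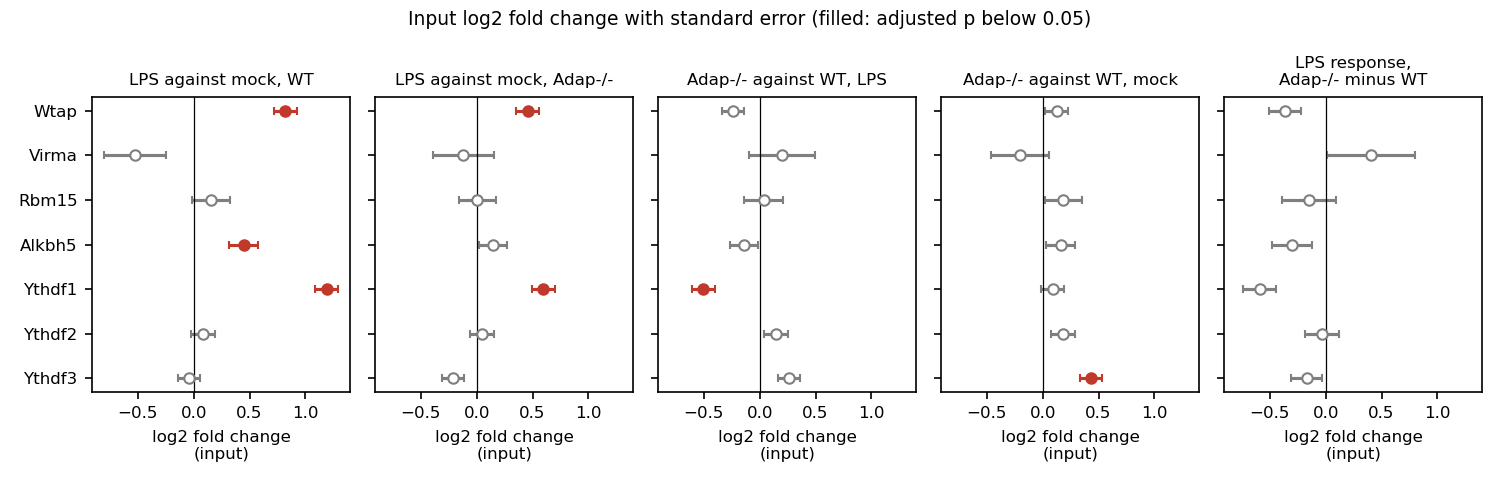
Log2 fold change in input of the 7 genes in 5 comparisons, with bars of 1 standard error from edgeR and filled points at an adjusted p below 0.05. Ythdf1 and Wtap are filled for LPS in both genotypes and Alkbh5 in WT only (upper-quartile scaling ends the calls of Wtap in Adap-/- PMs and of Alkbh5), Ythdf1 below 0 for genotype after LPS and Ythdf3 above 0 for genotype in mock.

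Across the 8 input libraries, log2 CPM of Wtap and Ythdf1 had a Pearson r of 0.97, Wtap and Alkbh5 0.917, and Alkbh5 and Ythdf1 0.86. Ythdf2 and Ythdf3 had an r of 0.673, and Virma had negative values with each of Wtap (−0.617), Alkbh5 (−0.704) and Ythdf1 (−0.625). The libraries fall into 4 groups of 2, so these coefficients describe the group pattern and carry no p. Among the 4742 genes tested, those most like each of the 7 by this measure were, under the symbols of the deposited annotation, as follows. Wtap was nearest to Usp15 (0.992), Mertk (0.991) and Arhgef37 (0.99). Ythdf1 was nearest to Piezo1 (0.993), Ctu2 (0.991) and Tiparp (0.991), of which Piezo1 and Ctu2 share a peak, and Alkbh5 to Dennd1a (0.972), Mars1 (0.962) and Fbxo42 (0.96). Ythdf3 was nearest to Ssh1 (0.971), Znf516 (0.958) and Zfp54 (ENSMUSG00000051341, 0.943), and Ythdf2 to Setd5 (0.955), Snx11 (0.924) and Csf2ra (0.923). Virma was nearest to ZNF844 (ENSMUSG00000053600, 0.958), Ndc1 (0.887) and Rmnd1 (0.862), and Rbm15 to Rbm33 (0.967), ENSMUSG00000101014 (0.943) and Prdm2 (0.915).

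Input reads were also tested peak by peak, to see whether the peaks of a gene moved alike. Peaks of a gene are parts of the same transcripts, and close neighbours may share fragments. Agreement among them is therefore not independent support for a change. Of the 21 peaks 20 passed the filter; Wtap peak 1, with 0 to 4 input reads per library, did not. LPS against mock gave 7 of 20 peaks in WT PMs, all higher, beside 58.7% of 6794 peaks tested, and 8 of 20 in Adap-/- PMs (6 higher and 2 lower) beside 54.7%. Genotype after LPS gave 3 of 20, all lower, beside 14.2%, genotype in mock 2 of 20, both higher, beside 14.8%, and the difference of the LPS responses 1 of 20, lower, beside 2.02%. The LPS counts per peak depend on the scaling: upper-quartile scaling, which moves the median of all peaks by −0.43 (WT) and −0.36 (Adap-/-), gave 12 of 20 in WT PMs, 5 higher and 7 lower, and 5 of 20 in Adap-/- PMs, all lower.

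The 3 Ythdf1 peaks, at chr2:180553112-180553362, chr2:180552962-180553062 and chr2:180552612-180552812, are close neighbours in the coding sequence and moved in the same direction. They rose with LPS by 1.18, 1.18 and 0.89 in WT and by 0.52, 0.43 and 0.60 in Adap-/- PMs on the log2 scale, and their log2 fold changes for Adap-/- against WT after LPS were −0.57, −0.61 and −0.40. Adjusted p was at most 0.0109 for the rises and at most 0.0351 for the genotype difference. Peak 2 is where the difference of the LPS responses was called (−0.75, SE 0.19, adjusted p = 0.0472), while peaks 1 and 3 had −0.66 (adjusted p = 0.0672) and −0.29 (adjusted p = 0.531). The calls of single peaks were fragile. The genotype difference after LPS lost its call at peak 1 without Adap-/- LPS replicate 1 (−0.46, adjusted p = 0.0579), and at peak 3 without any of the 4 Adap-/- libraries or either WT LPS library (−0.33 to −0.46, adjusted p from 0.0717 to 0.202). The call of the response difference at peak 2 was lost whichever of the 8 input libraries was left out (−0.64 to −0.82). The rise of peak 2 in Adap-/- PMs was lost without Adap-/- LPS replicate 2 (0.36, adjusted p = 0.0804) and without Adap-/- mock replicate 2 (0.35, adjusted p = 0.108). Upper-quartile scaling kept the 3 rises in WT PMs and ended those in Adap-/- PMs (0.16, 0.06 and 0.23, adjusted p from 0.113 to 0.681), the genotype difference after LPS at peak 3 (−0.33, adjusted p = 0.0864) and the response difference at peak 2 (−0.69, adjusted p = 0.0813).

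The peaks of Wtap rose with LPS in WT PMs by 0.54 at peak 3, in the 3′UTR of the shorter transcript, and by 0.94 and 0.82 at peaks 4 and 5, at the stop codon of the longer one (adjusted p = 0.00173, 7.41e-06 and 0.00014). In Adap-/- PMs these peaks gave 0.40, 0.30 and 0.40 (adjusted p = 0.0176, 0.0707 and 0.0328). Whether the ends of Wtap differ in their response was not tested. Leaving out Adap-/- LPS replicate 1 or Adap-/- mock replicate 1 ended the Adap-/- call at peak 3 (0.30 and 0.33), and leaving out any of the 4 Adap-/- libraries ended it at peak 5 (0.36 to 0.43). Wtap peak 2, around the start codon, had 7 to 26 input reads and was called in Adap-/- PMs (1.31, SE 0.45, adjusted p = 0.019), a call that ended without Adap-/- LPS replicate 1 (1.11, adjusted p = 0.139) or Adap-/- mock replicate 2 (0.88, adjusted p = 0.184). The Alkbh5 peak, whose reads are also those of the gene test above, since the gene has 1 peak, rose in WT PMs under the scaling over peaks (0.35, adjusted p = 0.0367), and this call ended without any of the WT libraries (0.30 to 0.39) and without either Adap-/- mock library. With upper-quartile scaling the Alkbh5 value turned negative (−0.08, adjusted p = 0.613), and the calls ended for Wtap peak 3 in WT (0.11, adjusted p = 0.469) and for Wtap peaks 2, 3 and 5 in Adap-/- PMs (0.95, 0.03 and 0.03), while peaks 4 and 5 in WT PMs kept theirs (0.51 and 0.39).

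Ythdf3 peaks 1 (chr3:16258333-16259208) and 2 (chr3:16259258-16259308) were called for the genotype difference in mock, with 0.37 (SE 0.11, adjusted p = 0.0246) and 0.58 (SE 0.19, adjusted p = 0.0468), and peak 3 gave 0.27 (adjusted p = 0.274). With LPS peaks 1 and 2 fell in Adap-/- PMs by 0.26 (adjusted p = 0.0487) and by 0.55 (adjusted p = 0.021) and peak 3 gave −0.18 (adjusted p = 0.358), while peaks 1 and 2 gave −0.08 and −0.34 in WT PMs (adjusted p = 0.553 and 0.183), and the difference of the responses was not called (adjusted p = 0.693 and 0.827). These calls were close to the threshold. At peak 1 that in mock ended without any of the 4 mock libraries (0.36 to 0.40, adjusted p from 0.0615 to 0.148), and at peak 2 without Adap-/- mock replicate 2 (0.41, adjusted p = 0.367) and either WT mock library (0.47 and 0.71), as well as with replicate number as a block (0.58, adjusted p = 0.0571). The fall at peak 1 was lost without any of the 4 Adap-/- libraries or either WT LPS library (−0.22 to −0.29), under RLE scaling (−0.24, adjusted p = 0.0614), with no filter on low counts (−0.25, adjusted p = 0.0537) and with replicate number as a block (−0.26, adjusted p = 0.0626), and that at peak 2 without Adap-/- LPS replicate 2 (−0.38, adjusted p = 0.179) or Adap-/- mock replicate 2 (−0.36, adjusted p = 0.223). With upper-quartile scaling both mock calls stayed, and peaks 1, 2 and 3 were called lower with LPS in WT (−0.51, −0.77 and −0.66) as in Adap-/- PMs (−0.62, −0.91 and −0.55).

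Enrichment by the antibody was expressed as log2 of IP CPM over input CPM, with 1 CPM added to both. The scale is relative, since a change shared by all peaks is removed by the scaling, so the rank among all 7058 peaks ranked is the safer reading. Averaged over the 8 IP and input pairs, 8 of the 21 peaks were above the median of all peaks and 7 were in the lowest 25%. Their median rank was the 32.1 percentile, and their median ratio was −0.32 against 0.03 for all peaks. The highest 10% held 3 of the peaks: Wtap peak 1 (percentile 99.0), Wtap peak 2 (95.1) and Rbm15 peak 4 (90.6). The ratio of Wtap peak 1 rests on 10 to 250 IP reads over at most 4 input reads and has no usable denominator. None of the 21 was in the lowest 10%, where Ythdf1 peak 2 came closest (percentile 10.1). The peaks of a gene ranked far apart, from 29.4 (peak 1) and 27.1 (peak 3) to 72.2 (peak 4) in Ythdf2, and from 12.4 (peak 3) to 55.9 (peak 1) in Ythdf3. The widest Ythdf2 and Ythdf3 peaks, of 300 and 875 bases, were the highest of their gene.

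**Figure D4:**
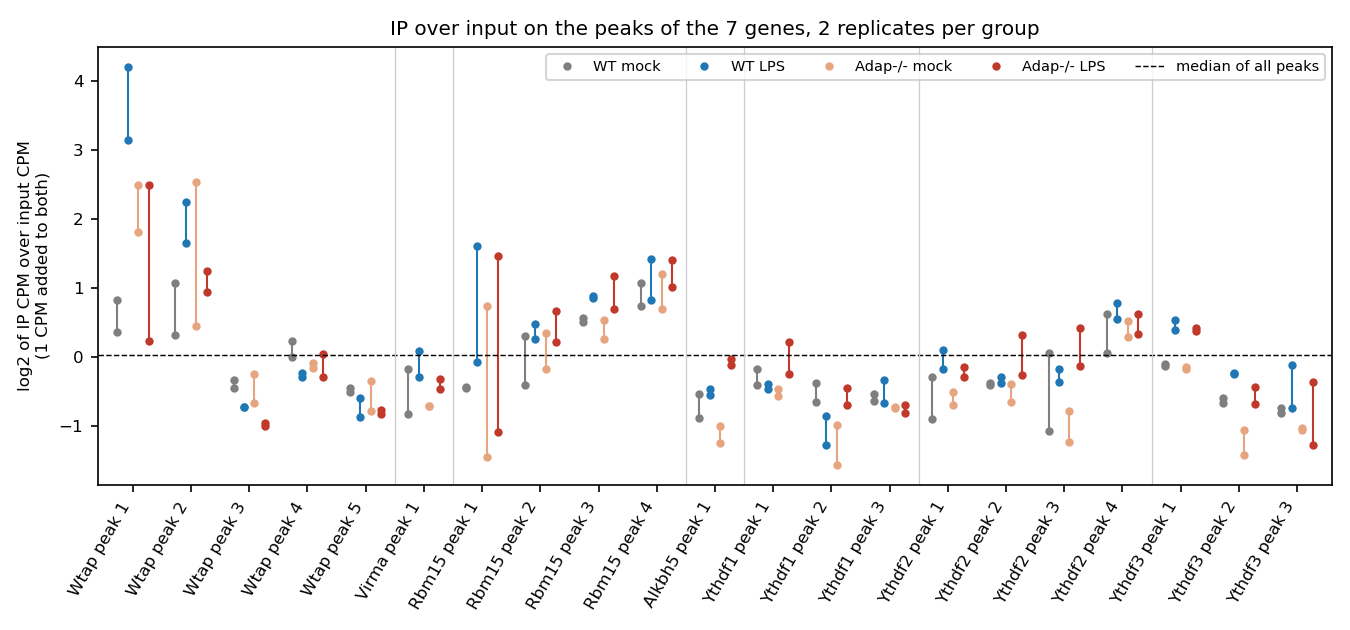
Log2 of IP CPM over input CPM (1 CPM added to both) on the 21 peaks of the 7 genes. Each point is 1 IP and input pair, lines join the 2 replicates of a group, and the dashed line is the median of all peaks; Rbm15 peaks 3 and 4 lie above it in every pair and all Ythdf1 peaks but peak 1 below it.

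The change of the IP-to-input ratio was tested with edgeR over 7058 peaks as an interaction of library kind and group. LPS against mock gave 0 of 21 peaks in WT PMs (0% of all peaks called) and 0 of 21 in Adap-/- PMs (0%). Genotype gave 0 of 21 after LPS (0.0142% of all peaks, 1 peak) and 0 of 21 in mock (0%), and the difference of the LPS responses gave 0 of 21 (0%). At an unadjusted p below 0.05 the counts of the 21 were 2, 5, 0, 1 and 4, in that order, beside 10.8%, 11.5%, 7.13%, 2.1% and 3.23% of all peaks. DESeq2 called 0 of the 21 in each comparison, while it called 203, 117, 29, 0 and 7 peaks over the table. Without the pair of mock IP libraries that stood apart, edgeR called 0, 1, 0, 0 and 0 of the 21, beside 160, 269, 45, 0 and 0 peaks over the table. The standard errors of these changes ran from 0.18 to 1.84 over the 21 peaks in the pairwise comparisons, and changes of several standard errors were among those not called, such as that of the Alkbh5 peak below.

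Among the writers' peaks, Rbm15 peak 4 (chr3:107237546-107237746) had a ratio between 0.70 and 1.41 in all 8 pairs, and Rbm15 peak 3 (chr3:107238371-107238796) between 0.25 and 1.18, so both stayed above the median of all peaks. The tested changes of the 4 Rbm15 peaks with LPS ran from 0.16 to 1.41 in WT and from 0.05 to 0.58 in Adap-/- PMs, with SE up to 1.33 at peak 1, which had 7 to 17 input reads. Without the pair of mock IP libraries that stood apart they ran from 0.24 to 1.43 in WT and from −0.82 to 0.47 in Adap-/- PMs, where peak 1 changed sign. The stop codon peaks of Wtap gave −0.38 and −0.25 with LPS in WT PMs (adjusted p = 0.609 and 0.823) while their input rose, and −0.46 and −0.12 without the pair. In Adap-/- PMs they gave 0.01 and −0.25 (adjusted p = 0.997 and 0.797), and −0.08 and −0.04 without the pair. Wtap peak 2 gave 1.26 in WT (SE 0.74, adjusted p = 0.601) and −0.60 in Adap-/- PMs (SE 0.73, adjusted p = 0.809), and 1.49 and 0.20 without the pair, so its Adap-/- value changed sign. Wtap peak 3 gave −0.33 in WT and −0.53 in Adap-/- PMs (adjusted p = 0.722 and 0.444), and −0.48 and −0.71 without the pair. The Virma peak gave 0.44 and 0.33 (adjusted p = 0.758 and 0.797), and 0.43 and 0.12 without the pair.

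The Alkbh5 peak, at the start codon, had the lowest adjusted p of the 21 for LPS in Adap-/- PMs. Its ratio was −1.25 and −0.998 in the Adap-/- mock pairs and −0.12 and −0.03 in the Adap-/- LPS pairs. In WT PMs it was −0.54 and −0.89 in mock and −0.56 and −0.47 with LPS, so that the WT groups overlapped and the Adap-/- groups lay apart. In rank, the peak went from the 7.08 percentile in Adap-/- mock to the 45.4 percentile in Adap-/- LPS PMs. The tested change was 1.06 in Adap-/- PMs (SE 0.25, adjusted p = 0.235) and 0.19 in WT PMs (SE 0.25, adjusted p = 0.856), with a difference of 0.87 (SE 0.36, adjusted p = 1). Without the pair of mock IP libraries that stood apart, the change in Adap-/- PMs was called (1.13, adjusted p = 0.0164), as it was without WT mock IP replicate 1 (1.08, adjusted p = 0.0424) or WT mock IP replicate 2 alone (1.08, adjusted p = 0.0423). The fit without the pair keeps 1 mock IP library of Adap-/- PMs, replicate 1, which is the one with reads on the first 2 Fyb1 CDS peaks, so this call rests on that library for the mock IP level. Without that library alone the change was not called (0.92, adjusted p = 0.11), and DESeq2 did not call it.

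Among the readers' peaks, Ythdf1 peak 2 showed opposite signs in the genotypes. Its ratio was −0.38 and −0.66 in WT mock, −0.86 and −1.28 in WT LPS, −1.57 and −0.98 in Adap-/- mock and −0.45 and −0.70 in Adap-/- LPS PMs. The tested change with LPS was −0.55 in WT (SE 0.27, adjusted p = 0.498) and 0.72 in Adap-/- PMs (SE 0.27, adjusted p = 0.348), and their difference of 1.27 (SE 0.38) did not pass the correction (adjusted p = 1). Without the pair of mock IP libraries these were −0.42 (adjusted p = 0.549), 0.89 (adjusted p = 0.0677) and 1.31 (adjusted p = 0.349). Input of the same peak differed in the opposite sense (−0.75), the input count stands in the denominator of the ratio, and its part in the ratio's change was not tested. Ythdf3 peak 1, the peak with the most input reads of the 21 (338 to 669), had ratios of −0.10 and −0.13 in WT mock and 0.39 and 0.54 in WT LPS, and of −0.17 and −0.15 in Adap-/- mock and 0.41 and 0.37 in Adap-/- LPS PMs. The LPS pairs lay above the mock pairs in both genotypes, with tested changes of 0.58 (SE 0.18, adjusted p = 0.262) and 0.55 (SE 0.18, adjusted p = 0.299). Without the pair of mock IP libraries these were 0.53 (adjusted p = 0.165) and 0.53 (adjusted p = 0.11). Ythdf2 peak 3, of 50 bases, gave 1.18 in Adap-/- PMs (SE 0.46, adjusted p = 0.363) and 0.17 in WT PMs, and without the pair 1.00 (adjusted p = 0.212) and −0.27, so the WT value changed sign. Small values of Ythdf2 peak 2 in WT (0.05 and −0.15) and peak 4 in Adap-/- PMs (0.06 and −0.04) changed sign as well.

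**Figure D5:**
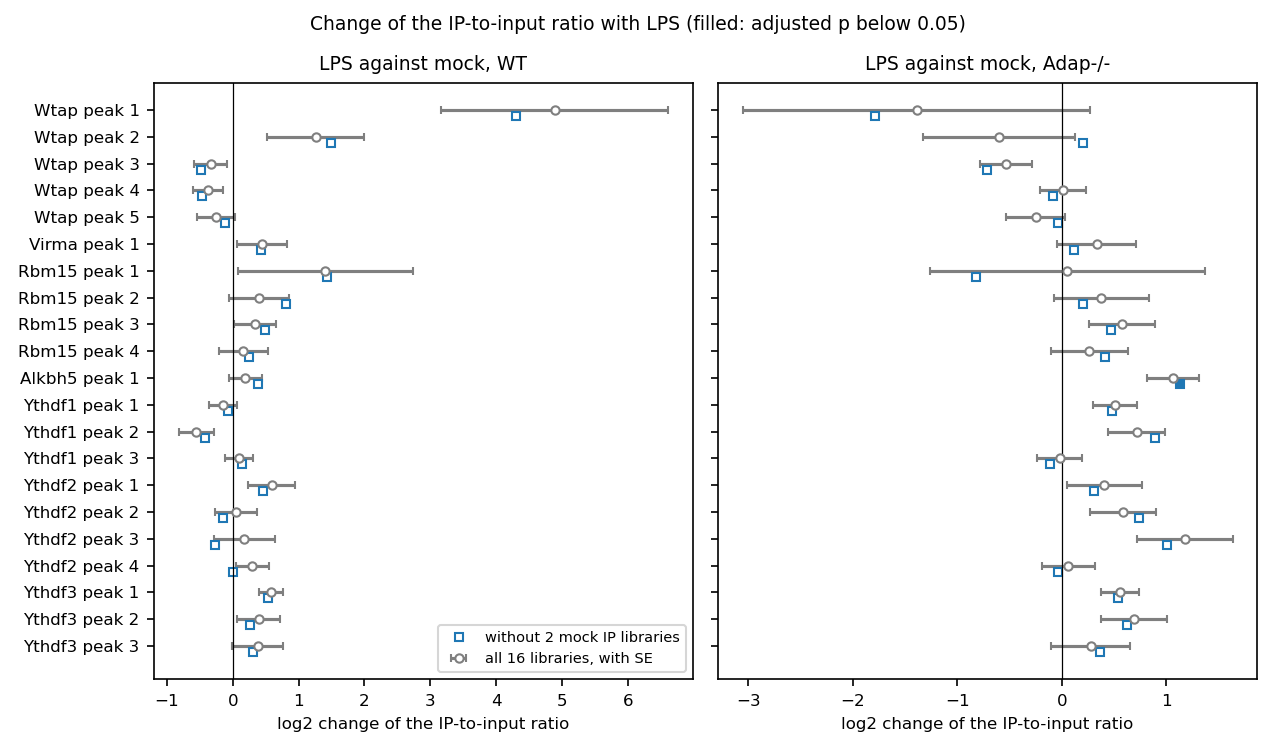
Log2 change of the IP-to-input ratio with LPS on the 21 peaks in WT (left) and Adap-/- PMs (right). Grey circles with bars of 1 standard error are from all 16 libraries, and squares are from the fit without the pair of mock IP libraries that stood apart; the only filled symbol is the square of the Alkbh5 peak in Adap-/- PMs (1.13), where a single mock IP library remains.

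The rest of the machinery was read from lists of its genes, for which the main fit and upper-quartile scaling are given. Of 9 other writer genes 5 had a peak and were tested: Mettl16, Zc3h13, Cbll1, Rbm15b and Pcif1. Every peak of Cbll1 and of Rbm15b is also annotated to another gene, so their values are not specific to the writers. With LPS in WT PMs their log2 fold changes ran from −0.04 to 0.39, with adjusted p of 0.117 or more, and with upper-quartile scaling from −0.33 to 0.10 with no call. In Adap-/- PMs Zc3h13, which encodes a zinc finger subunit that keeps the complex in the nucleus, rose by 0.37 (adjusted p = 0.0284; with upper-quartile scaling 0.09, adjusted p = 0.562), against 0.23 in WT PMs, and the responses were not shown to differ (0.14, adjusted p = 0.829). Zc3h13 was also higher in Adap-/- than in WT PMs after LPS (0.54, SE 0.14, adjusted p = 0.0145, and 0.56 with upper-quartile scaling, adjusted p = 0.0121), with 78.4 and 98.1 CPM against 57.5 and 63.2 CPM. Upper-quartile scaling added a call for Rbm15b, lower with LPS in Adap-/- PMs (−0.56, adjusted p = 0.00135, against −0.29 and 0.077 in the main fit). Mettl3, Mettl14, Elf3, Zcchc4 and the eraser Fto had no peak and were not analysed here. Of 10 other readers 4 were tested, and Ythdc1, the nuclear YTH reader (0.73 in WT and 0.63 in Adap-/- PMs, adjusted p = 0.00026 and 0.000656), and Rbmx (0.90 and 0.94, adjusted p = 0.000567 and 0.000282) rose with LPS in both genotypes and kept these calls with upper-quartile scaling (0.44 and 0.36, and 0.61 and 0.67). Hnrnpa2b1 was not called in the main fit (−0.07 with LPS in WT, adjusted p = 0.643) and was called lower there with upper-quartile scaling (−0.36, adjusted p = 0.0153). Prrc2a rose with LPS in Adap-/- PMs (0.26, adjusted p = 0.0403), a call that upper-quartile scaling ended (−0.02, adjusted p = 0.875), where WT PMs gave 0.23 (adjusted p = 0.0616) and the responses were not shown to differ (0.02, adjusted p = 0.962), and it was higher in Adap-/- than in WT PMs after LPS (0.38, adjusted p = 0.0173) and in mock (0.36, adjusted p = 0.0223), with values of 0.40 and 0.37 and both calls kept under that scaling. Of 15 genes of the deadenylation and decay machinery to which YTHDF proteins deliver transcripts, 3 were tested (Cnot2, Cnot4 and Pan3). Cnot4 rose with LPS by 0.56 in WT and 0.52 in Adap-/- PMs (adjusted p = 0.00263 and 0.00319), and upper-quartile scaling ended both calls (0.28 and 0.25, adjusted p = 0.101 and 0.122).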

How the data were processed

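The labels name Bowtie2 2.2.8, MACS2 2.1.2 and DiffBind 2.8 as the tools and GRCm39 as the build, and the authors deposited 1 table of read counts per peak for the 16 libraries. Its 8094 lines hold 7069 distinct peaks, because a peak annotated to several genes has a line for each; each peak was counted once per gene. The 7 genes, the gene lists and the tests were chosen with earlier results of these data known.

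Gene expression was the input count summed over the distinct peaks of a gene. Tests used edgeR 4.0.16 (quasi-likelihood, TMM) in R 4.3.3 with filterByExpr (minimum count 10, minimum total 15) and Benjamini-Hochberg adjustment over everything tested: 4742 genes in input (201 left out), 6794 peaks in input (275 left out) and 7058 peaks in all 16 libraries (11 left out), where the IP-to-input ratio was tested as the interaction of library kind and group. A group had 1 mean, and the 4 groups shared 1 estimate of the spread, with a biological coefficient of variation of 8.82%, 8.92% and 30.6%. All tests are two-sided. The pipeline was tested on simulated data. The simulation had a smaller spread than the IP-to-input fit and left out features with low counts. It does not show which changes of the ratio that fit could detect.

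IP and input libraries of a replicate come from 1 RNA sample by the protocol. The correlation over peaks of their replicate differences was checked and was −0.105 in WT mock, 0.113 in WT LPS, 0.0388 in Adap-/- mock and 0.0858 in Adap-/- LPS. The fit has no pairing term, and the pairing was tried as an alternative.

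One set of cell type markers is not reported here. Genes named are the 7, the genes of the reported lists that were tested, and the writers and the eraser without a peak. For each of the 7, the 3 genes with the highest Pearson r of log2(CPM + 1) over the 8 input libraries that share no peak with it are named as well. Values that single out 1 peak of a gene were chosen after the values were seen. Alternatives were other scalings (RLE, upper quartile, TMM within each kind of library), DESeq2 1.42.0, other filters on low counts, replicate blocks, only peaks with 1 gene, only the groups compared, other pseudocounts, and each library left out in turn. Input per peak was repeated with RLE, upper quartile, no filter, the block and the omissions alone. Where an omission leaves 1 library in a group, that library is assumed to vary like the other groups. Promoters are from RefSeq (GRCm38.p6), and no coordinate of that build was compared with a peak.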

Additional observations from a re-analysis of the deposited data

Results flagged for a closer look

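The input reads of Ythdf1 peak 2 responded to LPS to a different extent in the 2 genotypes by the test of the difference itself: the Adap-/- response minus the WT response was −0.75 on the log2 scale (SE 0.19, adjusted p = 0.0472 over 6794 peaks). The peak rose by 1.18 in WT and by 0.43 in Adap-/- PMs. The difference lost its call in every fit that left out 1 of the 8 input libraries (−0.64 to −0.82, adjusted p from 0.0683 to 0.242), with replicate number as a block (−0.75, adjusted p = 0.0622) and with upper-quartile scaling (−0.69, adjusted p = 0.0813). Over all Ythdf1 peaks together it was −0.59 (adjusted p = 0.0587).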

How the results depend on the processing

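Alternatives are given for the 7 genes and their 21 peaks. For other genes of the machinery, and for Adgre1 and Cd68, only upper-quartile scaling is given. That scaling turned the rise of Prrc2a with LPS in Adap-/- PMs from 0.26 to −0.02. Of the values of the 7 genes and 21 peaks that passed their test, 1 changed direction. The rise of the Alkbh5 peak in input with LPS in WT PMs, 0.35, became −0.0805 with upper-quartile scaling (adjusted p = 0.613). Of the repeats for the 7 genes in input, 540 of 553 kept their side of the threshold. So did 1128 of 1200 for their peaks in input and 2596 of 2599 for the IP-to-input ratio. Most of these repeats are of values not called in the main fit, as are all those of the ratio, so the shares do not measure how stable the calls are. In input per peak, 60 repeats ended a call, 1 ended it with a change of sign and 11 made a call. Counts of called genes, given with the range over omission of each library: LPS in WT 3 (2 to 4), LPS in Adap-/- 2 (2 to 2), genotype after LPS 1 (0 to 1), genotype in mock 1 (0 to 1), difference of responses 0 (0 to 0). A minimum of 10 counts per gene in each input library gave 2 for genotype after LPS and 3 for LPS in Adap-/-. Upper-quartile scaling gave 4 for LPS in WT (2 higher and 2 lower) and 2 for LPS in Adap-/- (1 higher and 1 lower). For the difference of responses it was 1 with DESeq2 and 1 with only peaks annotated to 1 gene. Counts of called peaks in input were 7 (6 to 7), 8 (3 to 8), 3 (1 to 3), 2 (0 to 2) and 1 (0 to 0). With replicate number as a block these were 7, 7, 3, 1 and 0, while the counts of genes stayed at 3, 2, 1, 1 and 0. RLE scaling and the omission of the filter each gave 7 peaks for LPS in Adap-/-. Upper-quartile scaling per peak, an alternative chosen after seeing the data, gave 12, 5, 2, 2 and 0, and DESeq2 was not run per peak in input. Between the inputs of different groups, replicate differences had r between −0.0889 and 0.166. IP and input libraries from 1 RNA sample gave −0.105 to 0.113 by the same measure. It therefore cannot show whether replicate numbers are paired across groups. For the IP-to-input ratio of LPS in Adap-/- PMs the count was 0 (0 to 1) and 1 without the pair of mock IP libraries that stood apart. With each IP and input pair as a block it was 0 in all 5 comparisons (7, 6, 0, 0 and 0 over the table), and with the WT mock numbers crossed, an alternative chosen after seeing the data, 0 as well (28, 31, 1, 0 and 0 over the table). With TMM within each kind of library the median ratio of the 21 peaks went from −0.32 to 0.18 and that of all peaks from 0.03 to 0.51, so the median of the 21 stayed below that of all peaks, with 7 of the 21 above it. Upper-quartile scaling lowered the share of called genes that rose with LPS from 51.1% to 35.8% in WT and from 52.2% to 34.9% in Adap-/- PMs. The cause was not tested for any of these.

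With 2 replicates a group, omission of a library leaves 1 in its group. The table covers peaks only, so transcripts without a peak and regions between peaks are not measured. Wtap peak 1, with at most 4 input reads per library, gives no usable ratio. The TMM factors add 1.08 (WT) and 1.06 (Adap-/-) to the log2 fold changes of input with LPS, and scaling to the totals alone was not run. TMM removes a change shared by all peaks, so a global change of m6A would not be seen. Reads carry no molecular identifiers.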
